A study of Mus musculus with 4 samples.

Results

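Genes of blood vessel cells were followed in RNA-seq of flow-sorted retinal cells of the newborn mouse. The set holds 8 endothelial genes (Cldn5, Pecam1, Cdh5, Kdr, Tek, Flt1, Esam and Egfl7) and 2 genes of mural cells (Pdgfrb and Rgs5). They were taken by gene symbol, and all 10 were among the 22690 genes of the deposited table. Endothelial cells line vessels, and mural cells, the pericytes and smooth muscle cells, wrap them. In the mouse retina the vascular plexus spreads from the optic nerve head during the first postnatal days, so dividing vascular cells can enter a sort for replicated DNA. Sprouting is driven by VEGF-A, which neurons and astrocytes secrete and which signals through the receptor that Kdr encodes. Flt1 encodes a second VEGF receptor that mostly acts as a decoy, Tek the angiopoietin receptor, and Pdgfrb the receptor by which pericytes are recruited. Kdr is also known to be transcribed in neural progenitors of the retina, so it is not exclusive to vessels.

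The study set 2 libraries of GFP-negative cells, labelled wild type, against 2 libraries of GFP-positive cells, labelled Casz1 cKO, a conditional knockout of a zinc finger transcription factor. All were C57BL/6 retinal cells of postnatal day 2 with a 4N DNA content, that of cells that have copied their genome and not yet divided, and all had spent 30 minutes in serum-free medium. The GFP sort and the genotype change together between the groups. The labels do not name the promoter that drives GFP or the recombinase, and the sources used here do not give the number of animals per library. Each column name carries 1 of 2 numbers, written here as tags A and B, and each tag is on 1 library of each group. Nothing in the labels says that a tag is a batch. The design text mentions 2 independent experiments but does not say which libraries they gave, so p-values measure the spread between these libraries, which may be technical.

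Depth was 22326119 reads in genes for cKO library A and 75832360 to 89473701 for the other libraries. cKO library A stood apart: across 14480 genes its Pearson correlation with the other libraries was 0.902 to 0.918, against 0.988 to 0.993 among those. Genes at 0 numbered 9179 in that library and 5793 to 6169 in the other libraries. Values are normalized counts, read counts divided by a size factor for each library. A floor of 3 reads is 8.38 normalized counts in cKO library A and 1.98 to 2.28 in the other libraries, which covers counting error only. Casz1 had 13162 and 11995 in the wild-type libraries, A first here and throughout, and 8687 and 10772 in the cKO ones. Its log2 fold change was −0.38 ± 0.19 (SE; limma, adjusted p = 0.771), and reads over the whole gene do not measure the deleted part. Of the labelled tissue, Pax6, a homeodomain factor of retinal progenitors, had 35093 to 69539.

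The 3 receptor tyrosine kinases of endothelium in the set, Kdr, Flt1 and Tek, include the gene with the highest level of the 10 and the gene with the lowest, so their upstream sequences are shown. Of the 10 genes, 6 had an entry in the RefSeq promoter table (GRCm38.p6). Each line holds the 250 bases before the start, 5′ to 3′ on the gene's strand. Capitals mark GGAAG, the core bound by ETS factors, GGGCGG, the GC box, and TATAAA, each on either strand.
Kdr: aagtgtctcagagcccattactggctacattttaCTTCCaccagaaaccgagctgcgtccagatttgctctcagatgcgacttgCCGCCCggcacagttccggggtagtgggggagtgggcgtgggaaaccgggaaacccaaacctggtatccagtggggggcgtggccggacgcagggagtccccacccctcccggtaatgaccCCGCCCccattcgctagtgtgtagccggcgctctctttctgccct
Flt1: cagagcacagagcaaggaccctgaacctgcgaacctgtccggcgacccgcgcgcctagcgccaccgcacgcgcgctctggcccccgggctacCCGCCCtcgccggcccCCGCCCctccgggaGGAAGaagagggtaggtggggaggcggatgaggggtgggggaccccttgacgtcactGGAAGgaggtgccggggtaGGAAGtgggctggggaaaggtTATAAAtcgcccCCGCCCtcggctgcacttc
Tek: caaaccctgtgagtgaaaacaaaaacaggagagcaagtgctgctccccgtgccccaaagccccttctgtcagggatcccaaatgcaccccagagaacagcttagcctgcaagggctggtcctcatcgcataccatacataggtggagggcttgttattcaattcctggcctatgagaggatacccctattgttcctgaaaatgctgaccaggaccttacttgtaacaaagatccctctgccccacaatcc
The windows are chr5:75978456-75978705 (minus strand), chr5:147726012-147726261 (minus strand) and chr4:94739039-94739288 (plus strand). The Kdr window held GGGCGG at 2 places and GGAAG at 1. The Flt1 window held GGGCGG at 3, GGAAG at 3 and TATAAA at 1, whose first base was 31 bases before the start. The Tek window held none of these letters. Among 32851 promoters of the same length, 64.1% held GGAAG, 32.7% GGGCGG and 12.4% TATAAA, so such matches are common and describe letters only.

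Kdr was one of the abundant transcripts of these cells, while Cdh5 and Tek, 2 of the genes that define endothelium, had at most 23.5 and 13.1 normalized counts. Kdr (ENSMUSG00000062960, chr5:75932827-75978458 of GRCm38, minus strand) had 42492 and 37659 normalized counts in wild type and 48371 and 38675 in cKO. Divided by the merged exon length, its mean was 4629 per kb, above 97.6% of the 21798 genes with a length and between Pax6 (4592) and Lhx2 (4686), 2 transcription factors of retinal progenitors. Ndufa4l2, the highest of a list of other mural genes with a median of 7.64 per kb, was at 7094. Which cells gave the Kdr reads was not tested. By contrast Cdh5 (ENSMUSG00000031871, chr8:104101625-104144511, plus strand), the cadherin of endothelial junctions, had 8.35 and 23.5 normalized counts in wild type and 0 and 8.59 in cKO. These are 11, 34, 0 and 13 reads. Per kb, Kdr exceeded Cdh5 by 747 to 2368 times in the 3 libraries that had Cdh5 reads.

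**Figure D1:**
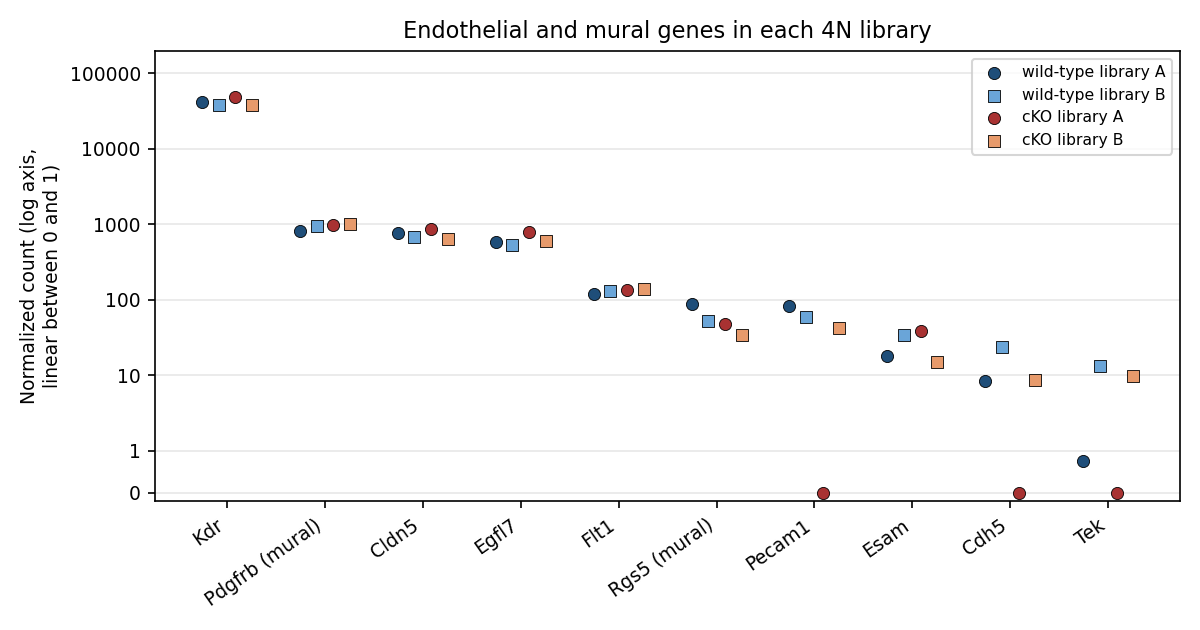
Normalized count (vertical log axis, linear between 0 and 1) of each of the 10 genes in the 4 libraries, ordered by mean; each point is 1 library. Kdr lies at 37659 or above in all 4, and Pecam1, Cdh5 and Tek are at 0 in cKO library A.

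The order of the mean levels per kb was Kdr (4629), Cldn5 (524), Egfl7 (177), Pdgfrb (173), Rgs5 (12.3), Flt1 (9.69), Esam (9.34), Pecam1 (7.46), Cdh5 (2.40) and Tek (1.26). Kdr, at 4170 to 5357 per kb over the 4 libraries, did not overlap Cldn5, at 451 to 624, which in turn did not overlap Egfl7, at 149 to 225. Egfl7 and Pdgfrb overlapped, since Pdgfrb had 151 to 182. A gap followed, because Rgs5 reached 19.5 at most. Rgs5, Flt1, Esam and Pecam1 overlapped one another and cannot be ordered. Cdh5, at up to 5.58, overlapped Esam, at 5.30 or more, and Tek, at up to 2.78. Pecam1 overlapped Cdh5 and Tek only through its 0 in cKO library A, since it had 6.79 or more in the other libraries. From the highest to the lowest, these levels differed by 3.56 on the log10 scale.

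**Figure D2:**
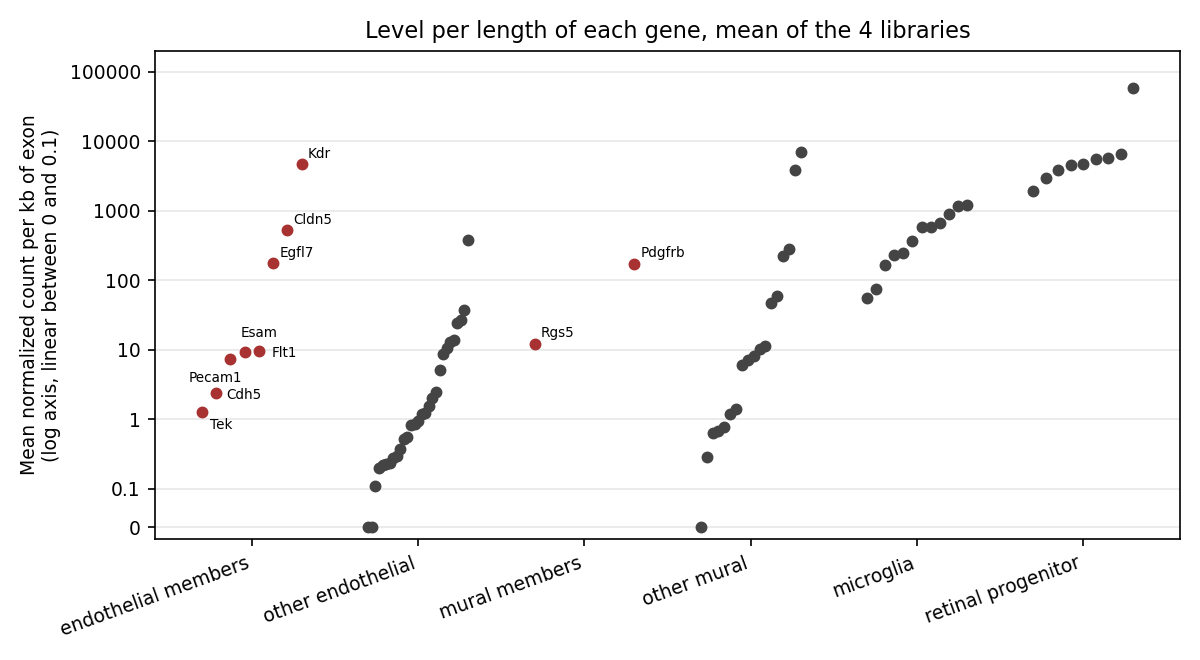
Mean normalized count per kb of exon over the 4 libraries (vertical log axis, linear between 0 and 0.1), 1 point per gene, spread sideways by rank within each list. Kdr, at 4629, sits within the range of the retinal progenitor list. In the other mural list, with a median of 7.64, the highest gene, Ndufa4l2, is at 7094. The other endothelial list reaches 379 at most.

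No change of any of the 10 genes passed the test between cKO and wild type. The test was limma on log2(normalized count + 1) over the 14480 genes with a mean of at least 10, which 9 of the 10 genes reached; Tek, with a mean under it, was not tested. Of the 9 genes, 0 had an adjusted p under 0.05, where 0% of all genes did (1.89% had an unadjusted p under 0.05, and 0 of the 9). On recovered reads edgeR called 0 of the 9 (0% of all genes) and DESeq2 0 of the 9 (0.00691% of all genes, which is Nr2e3 alone, so neither tool called a gene of any vessel list). Of these genes 5 had a higher mean log2 value in cKO and 4 a lower one, where 46.7% of all genes were higher and 53.3% lower. The median log2 fold change was 0.06, against −0.03 over all genes, and it became −0.18 without cKO library A, the library that stands apart. That fit takes the spread of the single cKO library to be that of the wild-type pair. It called 0 of the 9, where 0.373% of all genes were called, and had 3 higher and 6 lower. The groups did not overlap for 5 of the 9, 3 higher and 2 lower. Over all genes the groups did not overlap for 39.5%, 17.2% higher and 22.3% lower in cKO.

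**Figure D3:**
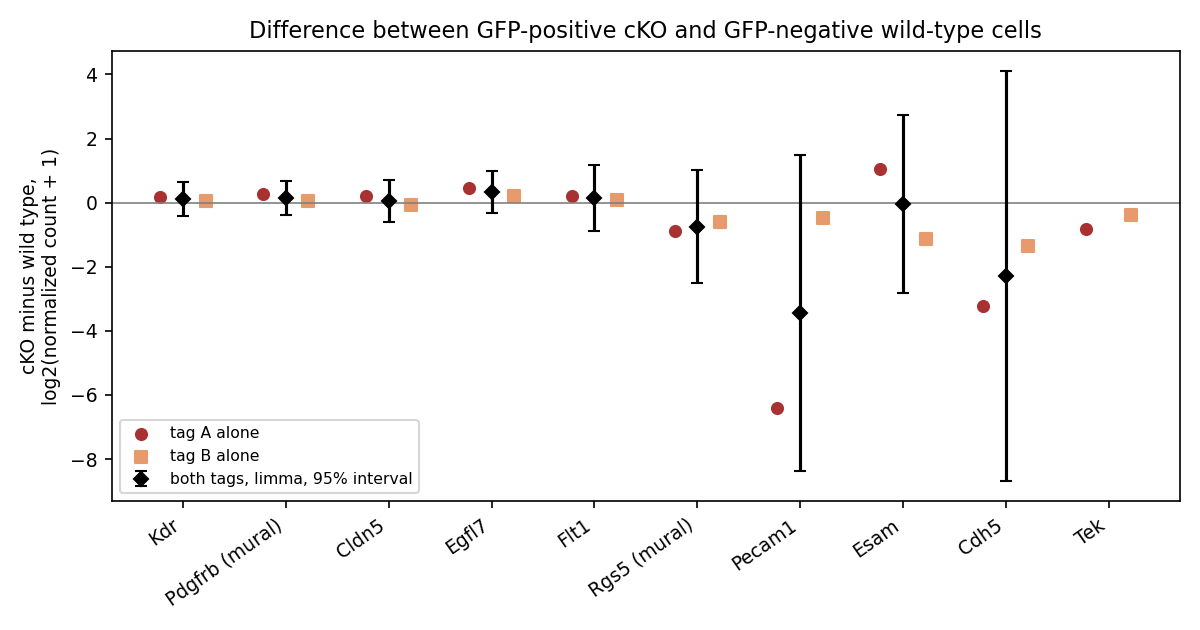
Difference between cKO and wild type on the log2(normalized count + 1) scale for each gene: diamonds with bars are limma estimates with 95% intervals (Tek was not tested), circles and squares the ratios within tag A and tag B. Intervals of all 9 tested genes include 0; those of Kdr, Pdgfrb, Cldn5 and Egfl7 stay within 1 log2 unit of 0, and those of Pecam1 and Cdh5 reach below −8.

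Among the receptors, Kdr differed little. The wild-type mean was 40075 ± 3418 (SD, n = 2) and the cKO mean 43523 ± 6856 (SD, n = 2), with overlapping groups and a log2 fold change of 0.11 (95% interval −0.41 to 0.63; limma, adjusted p = 0.847). Within tag A the log2 ratio was 0.19 and within tag B 0.04, and the fold change was −0.05 without cKO library A. A doubling or a halving of Kdr, a log2 fold change of 1 or −1, lies outside the interval, and smaller changes lie inside it. Flt1 (ENSMUSG00000029648, chr5:147561604-147726011, minus strand) had 118 and 130 in wild type and 137 and 138 in cKO. Both cKO values were above both wild-type ones, by less than the interval of the difference: the log2 fold change was 0.15 (95% interval −0.89 to 1.19; limma, adjusted p = 0.898). Counts over the whole gene do not separate the membrane form of the decoy receptor from its soluble form. Per kb, Kdr exceeded Flt1 by 419 to 537 times within a library. Tek (ENSMUSG00000006386, chr4:94739289-94874976, plus strand) had 1, 19, 0 and 15 reads, that is 0.759 and 13.1 normalized counts in wild type and 0 and 9.92 in cKO. Its groups overlapped, and both B libraries were above both A libraries. Tested without a filter on low values it had a log2 fold change of −0.59 (limma, adjusted p = 1.00).

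The junction genes Cldn5 and Esam had fold changes near 0. Cldn5 (ENSMUSG00000041378, chr16:18776847-18778262, plus strand), the claudin that seals the blood-brain and blood-retina barriers, had 771 and 675 in wild type and 883 and 639 in cKO. The cKO libraries were the highest and the lowest of the 4. Its log2 fold change was 0.06 (95% interval −0.60 to 0.72; limma, adjusted p = 0.938), and it was −0.18 when cKO library A was left out and −0.04 when wild-type library B was. Esam (ENSMUSG00000001946, chr9:37528078-37538319, plus strand), an immunoglobulin-like adhesion molecule of endothelial tight junctions, had 18.2 and 34.5 in wild type and 39.1 and 15.2 in cKO. It was higher in cKO at tag A, with a log2 ratio of 1.06, and lower at tag B, with −1.13. The fold change of −0.04 (95% interval −2.81 to 2.74; limma, adjusted p = 0.991) therefore had no direction: it was 0.06 after median rescaling, 0.41 without wild-type library B and 0.62 without cKO library B.

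Pecam1 and Cdh5 had the lowest fold changes, and both were at 0 in cKO library A. Pecam1 (ENSMUSG00000020717, chr11:106654217-106750628, minus strand), an adhesion molecule of endothelium that leukocytes and platelets also carry, had 84.3 and 59.4 in wild type and 0 and 42.3 in cKO, from 111, 86, 0 and 64 reads. Both cKO values were below both wild-type ones. The log2 fold change was −3.45 ± 1.98 (SE; limma, adjusted p = 0.771), and since it rests on the added 1 it was −2.30 with an added 5 and −1.62 in edgeR. It was −0.73 without cKO library A and −0.48 within tag B. Without cKO library B, in a fit with the same assumption on the single cKO library, it was −6.16 (limma, adjusted p = 1.13e-10), where 39.8% of all genes were called. Cdh5 had a log2 fold change of −2.29 ± 2.56 (SE; limma, adjusted p = 0.779), and its cKO library B, at 8.59, lay just above wild-type library A, at 8.35. It was −0.66 without cKO library A, −1.59 without wild-type library B and −1.24 with an added 5. Without cKO library B it was −3.92, where cKO library A, at 0, was the only cKO library. The mean of Cdh5 over all libraries was just above the filter, through wild-type library B.

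Zeros were common in cKO library A at these levels. Of the 671 genes whose mean in the other 3 libraries lay from 40 to 80 normalized counts, where Pecam1 (62.0) and Rgs5 (58.8) fall, 36.1% were at 0 there. At 10 to 20, the level of Cdh5 (13.5), 75.5% of 589 genes were at 0. The same shares were 0% and at most 2.53% in each other library, measured in the same way. At the mean of the other libraries Pecam1 would give 22.2 reads in cKO library A, where 0 were seen, and Cdh5 4.82 reads. Rgs5, at almost the level of Pecam1, gave 17 reads there, and Flt1 gave 49. At 640 to 1280, where Cldn5 and Pdgfrb lie, 0.292% of 1710 genes were at 0. The part of this loss of genes in the Pecam1 and Cdh5 differences was not tested.

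**Figure D4:**
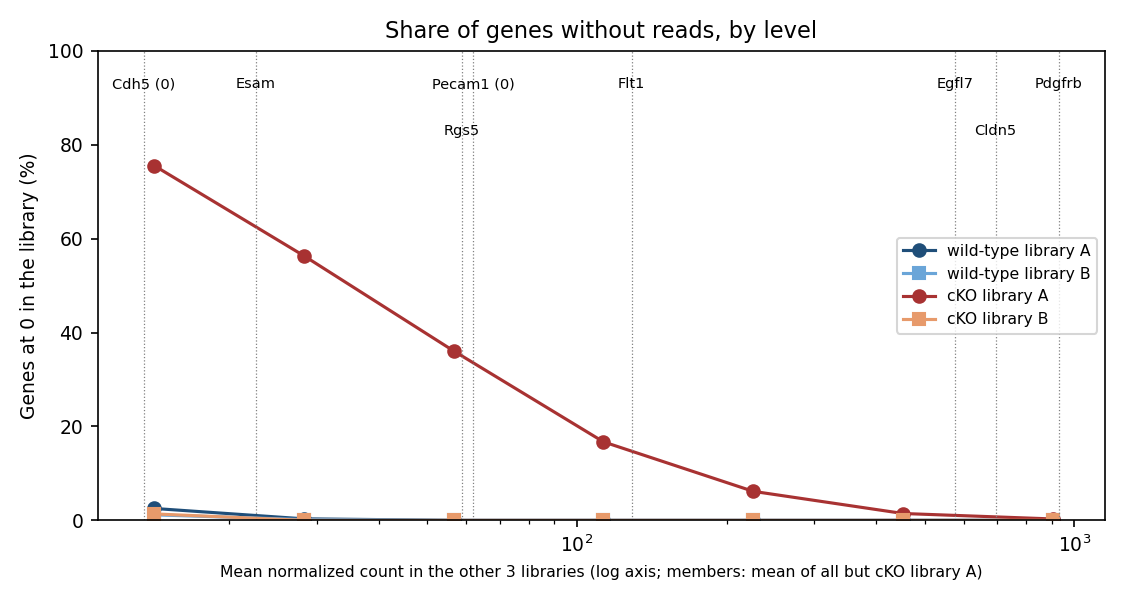
Share of genes without reads in each library (vertical axis, percent) against their mean normalized count in the other 3 libraries (log axis, 7 bins from 10 to 1280, points at bin centres); dotted lines mark 8 of the genes, with (0) for those at 0 in cKO library A. cKO library A falls from 75.5% to 0.292%, and the other libraries stay at or under 2.53%.

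Egfl7 and the mural receptor were slightly higher in both cKO libraries, and Rgs5 was lower. Egfl7 (ENSMUSG00000026921, chr2:26580014-26593120, plus strand), a secreted matrix protein of endothelium, had 585 and 534 in wild type and 805 and 612 in cKO. The log2 fold change was 0.33 (95% interval −0.32 to 0.98; limma, adjusted p = 0.771), and it was 0.13 without cKO library A. Exons of Egfl7 overlap those of Agpat2 on the opposite strand and of Gm20532 on the same strand, and the sources used here do not say whether counting used strand, so its reads are uncertain. Pdgfrb (ENSMUSG00000024620) had 829 and 966 in wild type and 992 and 998 in cKO, with means of 897 ± 96.6 (SD, n = 2) and 995 ± 4.52 (SD, n = 2). Its log2 fold change of 0.15 had a 95% interval of −0.38 to 0.69 (limma, adjusted p = 0.808), and it was 0.04 without wild-type library A. Rgs5 (ENSMUSG00000026678, chr1:169655501-169695813, plus strand), a regulator of G protein signalling enriched in pericytes, had 88.8 and 53.1 in wild type and 47.5 and 34.4 in cKO. Its log2 fold change was −0.75 (95% interval −2.51 to 1.01; limma, adjusted p = 0.771), with ratios of −0.89 within tag A and −0.61 within tag B; it was −0.39 without wild-type library A. Pdgfrb and Rgs5 thus differed in opposite directions, neither beyond its interval. In the authors' deposited table each of the 10 genes had an adjusted p of 1.00 to 3 digits, the lowest unadjusted one being that of Rgs5, at 0.0912. Of the 17477 genes with an adjusted p there, 51 (0.292%) had one under 0.05.

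Other endothelial genes were mostly scarce, with a median of 0.960 normalized counts per kb over the list and S1pr1 highest at 379. Of 31 further symbols, 29 were in the table and 12 were tested; 6 of the 29 were at or under the floor in all 4 libraries. Erg and Ly6c1 had no reads in any library, and Emcn and Tie1 had at most 2.28 and 5.95 normalized counts. In sorted bulk RNA, fewer cells of a type and less RNA per cell cannot be told apart. Of the 12 tested, 3 were higher (46.7% of all genes) and 9 lower (53.3%) in cKO. In limma 0 passed (1 had an unadjusted p under 0.05, against 1.89% of all genes). The groups did not overlap for 1 higher (17.2% of all genes) and 7 lower (22.3%). The filter takes the mean over all 4 libraries, so a scarce gene can pass through 1 library and these counts partly follow from it. Clec14a, lower without overlap, passed with a mean of 11.4 through wild-type library A (31.9, against 7.59 in wild-type library B). Ptprb, with a mean of 11.0, was highest in cKO library B (19.8). The median log2 fold change of the 12 was −2.49, with −4.93 within tag A and −0.48 within tag B. In cKO library A 8 of the 12 were at 0, as were 1074 of the 14480 genes tested. That share depends on level: it was 75.5% at 10 to 20 normalized counts in the other libraries and 36.1% at 40 to 80. Without that library 5 were higher and 7 lower, with a median of −0.68 and 0 called. S1pr1, the sphingosine-phosphate receptor, had 911 and 1032 in wild type and 1567 and 1111 in cKO, and it was the higher gene without overlap. Cd34, a sialomucin of endothelial and blood progenitor cells, had 294 and 264 in wild type and 53.1 and 160 in cKO, a log2 fold change of −1.58 ± 0.61 (SE; limma, adjusted p = 0.771), with −2.45 within tag A and −0.72 within tag B. Lyl1, a transcription factor of blood and endothelium, had 106 and 111 in wild type and 0 and 53.6 in cKO.

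Microglial markers were lower in both cKO libraries, without passing the test. All 12 markers listed were below both wild-type libraries in both cKO libraries (22.3% of all genes were), with 0 called by limma and 10 at an unadjusted p under 0.05 (1.89% of all genes). The 3 with the highest means were Csf1r, the receptor for colony stimulating factor, with 6021 and 4788 in wild type and 346 and 2293 in cKO, Ctss, a lysosomal protease, with 2468 and 2620 in wild type and 109 and 1249 in cKO, and Laptm5, a lysosomal membrane protein, with 2206 and 2326 in wild type and 137 and 920 in cKO. Without cKO library A, in the fit that rests on the spread of the wild-type pair, 8 of the 12 were called lower (limma), where 0.373% of all genes were called. Their summed level was 20617 and 19450 in wild type and 1224 and 8756 in cKO, and 1 of the 12 was at 0 in cKO library A. At tag B their median log2 ratio was −1.21, between Pecam1, at −0.48, and Cdh5, at −1.35, and Lyl1 had −1.04. The summed level of the 8 endothelial genes, mostly Kdr, was 44077 and 39127 in wild type and 50234 and 40139 in cKO. Pecam1, Cd34 and Lyl1 are known in blood cells as well as endothelium, and the part of microglia in their lower values was not tested.

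**Figure D5:**
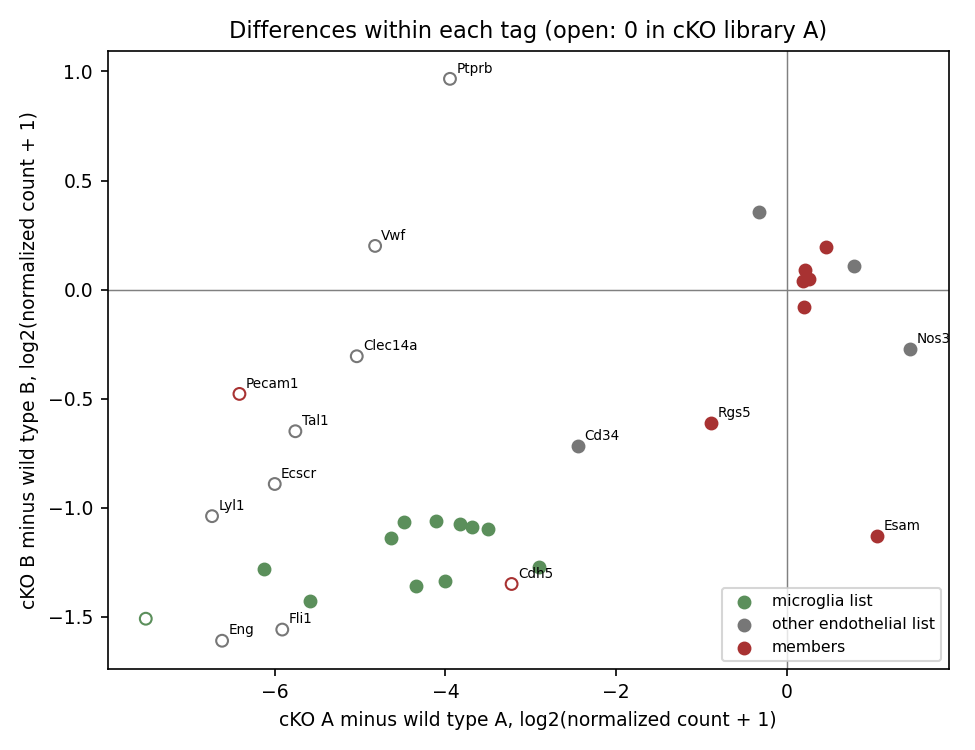
Difference between cKO and wild type within tag B (vertical axis) against that within tag A (horizontal axis), both on the log2(normalized count + 1) scale, 1 point per tested gene; open points are at 0 in cKO library A, where the horizontal position rests on the added 1. All 12 microglial markers lie below 0 on both axes, while 5 of the 9 tested endothelial and mural genes lie within 0.5 of 0 on both.

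The ligands of these receptors were measured in the same cells. The list of VEGF, Tie and PDGF ligands and receptors had 18 of 19 symbols in the table and 15 tested. Of these 0 passed in limma (0 had an unadjusted p under 0.05), and 3 were higher (46.7% of all genes) and 12 lower (53.3%). The groups did not overlap for 1 higher (17.2% of all genes) and 7 lower (22.3%). Its median log2 fold change was −0.33, and −0.25 without cKO library A. Vegfa, the ligand of the Kdr and Flt1 receptors, had 10082 and 10135 in wild type and 6507 and 8910 in cKO, a log2 fold change of −0.41 ± 0.21 (SE; limma, adjusted p = 0.771), with ratios of −0.63 within tag A and −0.19 within tag B. Of the ligands of Flt1, Vegfb had 2578 and 2390 in wild type and 3607 and 2438 in cKO, and Pgf had 289 and 207 in wild type and 184 and 206 in cKO. Vegfc, a ligand of lymphatic VEGF receptors that can also bind the Kdr product, had 142 and 169 in wild type and 352 and 209 in cKO, a log2 fold change of 0.80 ± 0.41 (SE; limma, adjusted p = 0.771), with 1.30 within tag A and 0.30 within tag B. Nrp1, the VEGF co-receptor neuropilin, had 1960 and 1594 in wild type and 1676 and 1445 in cKO, with overlapping groups. Vegfa and its main receptor Kdr were thus both well above the floor in these sorted cells.

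The ligands Angpt1, Angpt2, Pdgfb and Pdgfa gave reads in all 4 libraries. Angpt1, the activating ligand of Tek, had 658 and 613 in wild type and 534 and 507 in cKO, a log2 fold change of −0.29 ± 0.24 (SE; limma, adjusted p = 0.771). Angpt2, the context-dependent antagonist, had 186 and 168 in wild type and 229 and 131 in cKO. Angpt1 was lower in both cKO libraries and Angpt2 was not. Pdgfb, the ligand by which endothelium recruits pericytes, had 195 and 280 in wild type and 22.4 and 140 in cKO, a log2 fold change of −2.03 ± 0.91 (SE; limma, adjusted p = 0.771), with −3.07 within tag A and −0.99 within tag B. Pdgfa, the ligand of the PDGF alpha receptor of astrocytes, had 191 and 226 in wild type and 27.9 and 249 in cKO, so that only cKO library A was low. At the level of Pdgfa and Pdgfb, 160 to 320, 6.17% of 875 genes were at 0 in that library.

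Other mural genes ranged from absent to abundant, with means per kb from 0 to 7094 and a median of 7.64. All 18 symbols were in the table and 11 were tested, with 6 higher (46.7% of all genes) and 5 lower (53.3%). In limma 0 were called (0 with an unadjusted p under 0.05). The groups did not overlap for 2 higher (17.2% of all genes) and 1 lower (22.3%), and the median log2 fold change was 0.09. Kcnj8 and Abcc9, subunits of the potassium channel of pericytes, had at most 2.28 and 11.0 normalized counts, and Higd1b, a pericyte marker, had no reads in any library. Ndufa4l2, a mitochondrial protein induced by hypoxia that marks pericytes in brain, had 5464 and 6401 in wild type and 11866 and 7340 in cKO. Its log2 fold change was 0.66 ± 0.27 (SE; limma, adjusted p = 0.771), and 0.20 within tag B. Cox4i2, a cytochrome oxidase subunit of hypoxic cells and pericytes, had 2322 and 2791 in wild type and 3878 and 3140 in cKO. Notch3, the Notch receptor of mural cells, had 2481 and 1653 in wild type and 2981 and 1993 in cKO, with overlapping groups. Vtn, the lower gene without overlap, had 169 and 173 in wild type and 27.9 and 113 in cKO. Its log2 fold change was −1.58 ± 0.76 (SE; limma, adjusted p = 0.771), with −2.55 within tag A and −0.61 within tag B.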

How the data were processed

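RNA-seq of 4 libraries was analysed from the deposited table of normalized counts. The submitters' processing notes name FastQC, TopHat, HTSeq and DESeq, and build mm10; the sources used here do not give versions, annotation or strand setting. Per the file headers the values are normalized counts, a signal that proved to be read counts over 1 size factor for each library: 100% were whole multiples of 1 read within 0.01, so reads were recovered. The deposited p-value and adjusted p-value columns are the authors' own. Both cKO columns carry the heading of replicate 2, so columns were assigned to groups and not to numbered samples. Libraries of a group differed beyond sampling noise, with a chi-square over its degrees of freedom of 67.0 (wild type) and 113 (cKO).

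Genes with a mean of at least 10 were tested with limma 3.58.1 (mean-dependent prior, two-sided, Benjamini-Hochberg) on log2(normalized count + 1), which understates changes of low genes in general but gave larger ones than edgeR for Pecam1 and Cdh5, each at 0 in 1 library. Alternatives were edgeR 4.0.16 and DESeq2 1.42.0 on recovered reads, other pseudocounts and filters, median rescaling, no mean-dependent prior, a replicate block and each library left out. In simulated reads of 14480 genes with 2 libraries per group limma found 34 of the 100 genes with a 2-fold change, 93 of the 100 with a 4-fold change and 10 that had none. Changed genes were drawn from those with a mean of at least 100, which leaves out Pecam1, Cdh5, Esam and Rgs5. Both cKO libraries were simulated around the same mean, so the excess zeros of cKO library A were not built in. The shares found therefore do not carry over to genes of low level or to the spread of that library. Lengths and positions are from GENCODE M21 (GRCm38), with 21798 of 22690 identifiers found. The genes and lists were chosen with earlier results of these data known. Named genes are all 10 genes, their ligands and, in each other list, the 3 with the highest mean, since none passed; for the retinal progenitor, photoreceptor and cell cycle lists only counts are given, besides Pax6. Lhx2, Vtn, Slco1c1, Clec14a, Ptprb, Slc14a1, S100b and Igsf1 were named after their values were seen. So were genes at or near 0 (Emcn, Tie1, Erg, Ly6c1, Kcnj8, Abcc9, Higd1b, Dcn, Lum, Esm1, Aplnr, Slco1a4, Abcb1a and Ocln). A gene first listed as a retinal progenitor marker was taken out of that list and is not reported here. Software was R 4.3.3 and Python 3.11.15.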

Additional observations from a re-analysis of the deposited data

How the results depend on the processing

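Over 114 values of the 9 tested genes under the alternatives, 104 kept their direction and their side of the threshold, 8 reversed and 2 passed. Those that passed were Pecam1 and Cdh5 without cKO library B, so the count of these genes called ranged from 0 to 2 over left-out libraries and was 0 under each other alternative. Esam reversed with median rescaling (0.058), edgeR (0.0045) and DESeq2 (0.016). Over left-out libraries the log2 fold change ranged from −0.69 to 0.62 for Esam, from −0.18 to 0.29 for Cldn5 and from −0.049 to 0.27 for Kdr; the cause was not tested. The median of the genes ranged from −0.18 to 0.15 over left-out libraries. The number lower in cKO, 4, became 1 with a mean of at least 50, since only 6 of the genes were then tested, and was 3 to 6 over left-out libraries. Over all genes the count of calls was 0 in limma and edgeR (208 at an unadjusted p under 0.05), 1 in DESeq2 (Nr2e3, lower), and 0 to 5768 over left-out libraries, the highest without cKO library B and 54 with cKO library A left out. The tags pair libraries by number only, and deviations of same-tag libraries correlated at 0.258 across genes. With the tag as a replicate block the count over all genes was 0 (1375 at an unadjusted p under 0.05), the count among these genes was 0, and the median stayed at 0.06 with 4 lower. Depth limits Tek, Cdh5 and Esam most, at 1 to 50 reads where any were seen.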

Other observations

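Genes of vessel sprouting and of the blood-retina barrier were measured in the same libraries, most of them at levels far above Cdh5. Below Cdh5, at 2.40 per kb, were Esm1 (0.398) and Aplnr (0.486) of the sprouting list. Of the barrier list, Slco1a4 (0.108), Abcb1a (0.157), Ocln (0.686) and Slco1c1 (2.32) were below it. Over all genes 46.7% were higher in cKO, 53.3% lower and 0% called. The groups did not overlap for 17.2% higher and 22.3% lower. In the sprouting list all 12 symbols were in the table and 10 were tested, with 4 higher, 6 lower and 0 called. Its groups did not overlap for 0 higher and 1 lower, and its median log2 fold change was −0.06. Mcam, an adhesion molecule, had 9653 and 7324 in wild type and 16764 and 7490 in cKO. Cxcr4, a chemokine receptor of tip cells and neural progenitors, had 8070 and 11149 in wild type and 10193 and 11721 in cKO, and Plxnd1, a semaphorin receptor, 5347 and 4951 in wild type and 5608 and 5239 in cKO. In the barrier list 12 of 15 were tested, with 6 higher, 6 lower and 0 called, and a median of 0.04. Its groups did not overlap for 1 higher and 2 lower. Slc2a1, the glucose transporter of barrier endothelium that many dividing cells also use, had 41166 and 34607 in wild type and 62371 and 36107 in cKO, where wild type and cKO overlapped. Tjp1, a junction scaffold, had 11819 and 12058 in wild type and 10615 and 12025 in cKO, and Slc7a5, an amino acid transporter, 7409 and 6688 in wild type and 12291 and 6884 in cKO. In the list of Norrin and its frizzled receptor 7 of 8 were tested, with 5 higher, 2 lower and 0 called, and a median of 0.10. The groups overlapped for all 7. Ctnnb1, Lrp5 and Apcdd1 had log2 fold changes of 0.40, 0.10 and 0.09.

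Of cells that accompany vessels, astrocyte markers had 6 of 6 lower in cKO, with a summed level of 1826 and 1179 in wild type and 833 and 793 in cKO. In limma 0 were called (1 had an unadjusted p under 0.05). Over all genes 53.3% were lower and 1.89% had such a p. Slc14a1 had a log2 fold change of −0.08 with overlapping groups, and was highest in cKO library A (55.9). S100b (−3.56) and Igsf1 (−2.68) were at 0 in that library, so their fold changes rest on the added 1. Without cKO library A the median of the 6 was −0.76. Gfap, the filament protein of astrocytes, had 313 and 234 in wild type and 226 and 159 in cKO, and Pdgfra, the PDGF alpha receptor, 1021 and 654 in wild type and 539 and 481 in cKO. Pax2, a transcription factor of retinal astrocytes, had 322 and 184 in wild type and 11.2 and 76.7 in cKO. It was called lower without cKO library A, in the fit that rests on the spread of the wild-type pair, where 0.373% of all genes were called. Of 8 fibroblast symbols 5 were tested, 3 higher (46.7% of all genes) and 2 lower (53.3%), with 0 called and a summed level of 8157 to 12746. The groups did not overlap for 1 higher (17.2% of all genes) and 1 lower (22.3%). Besides Pdgfra, the highest were Col6a1, a collagen chain, with 4753 and 4952 in wild type and 6105 and 5873 in cKO, and Fbln1, a matrix protein, with 3050 and 2335 in wild type and 5787 and 2631 in cKO. Dcn and Lum, 2 proteoglycans of fibroblasts, were at 0 in all 4 libraries. Of the erythroid list 6 symbols were in the table, with a summed level of 97.2 and 16.6 in wild type and 0 and 47.6 in cKO. Its highest genes were the globins Hbb-b1, with 55.4 and 11.0 in wild type and 0 and 27.8 in cKO, and Hba-a1 and Hba-a2, with means over the 4 libraries of 4.69 and 4.65; all 3 were at 0 in cKO library A. Of the retinal lists, 8 of 9 progenitor genes and 9 of 10 cell cycle genes were higher in cKO (46.7% of all genes) and all 10 photoreceptor genes lower, with 0 called in limma; 6 of the photoreceptor genes had an unadjusted p under 0.05.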
